A study of Rattus norvegicus with 3 samples.

Results

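MicroRNAs (miRNAs) in extracellular vesicles of rat astrocytes were compared between a culture given IL-4 with C1q and a culture given the inflammatory mixture of IL-1α, TNF-α and C1q. The comparison was defined by the treatment labels, with 1 library on each side. Its members were chosen by depth alone: 445 of 769 miRNA names reached 50 counts in the higher of the 2 libraries. The remaining 324 names stayed under that minimum, of which 101 had no count in either library and 223 were detected in at least 1. The 445 described names held 99.97% of the counts used in each library, and none of them was at 0 in either library.

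Primary astrocytes were taken from neonatal wild-type rats, treated on culture day 6 and left for 24 h, after which vesicles were isolated from the conditioned medium for small RNA sequencing. C1q, a complement protein, was in both treated cultures, so it is shared by the groups compared here; they differ in IL-4 against IL-1α plus TNF-α. All 3 libraries of the series carry the batch label Batch1, and a library from untreated astrocytes stands outside the comparison. No agent doses and no number of animals or cultures pooled per library are given in the sources used here. One protocol sentence of the labels speaks of RNA from harvested astrocytes, while the sample descriptions and the design text speak of vesicle RNA; the libraries are called vesicle libraries here after the latter.

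Counts used came to 12319966 for IL-1α/TNF-α/C1q and 7773869 for IL-4/C1q. Levels are counts scaled to 1000000 counts used per library (CPM), so each is a share of its library and not an amount per vesicle, and fewer vesicles of a kind and less of a miRNA per vesicle cannot be told apart. With 1 library per treatment there is no replicate error and no test: a ratio compares 2 libraries, and its 95% interval, an exact conditional binomial interval, covers counting error only. Amplified copies of a molecule are not independent, so even these intervals are too narrow. Ratios and log2 ratios below are the IL-4/C1q share over the IL-1α/TNF-α/C1q share, and "fold lower" is the inverse. A miRNA counts as past a fold when its ratio reaches that fold, its interval leaves out 1 and its higher library has at least 50 counts.

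A miRNA guides the Argonaute protein to messenger RNAs that pair with its seed, bases 2 to 8 from the 5′ end, and usually lowers the output of those messengers. Each hairpin precursor gives a 5p and a 3p arm, neighbouring hairpins are often cut from 1 transcript, and family members with the same seed share many targets. Vesicles released by cells carry some of their miRNAs into the medium. In astrocytes, IL-1α, TNF-α and C1q together are known, as signals released by activated microglia, to induce a neurotoxic reactive state, while IL-4 is a type 2 cytokine known for alternative activation of macrophages and microglia.

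The following mature sequences carry the comparison. They are RefSeq entries of the rat on the GRCr8 assembly, written 5′ to 3′ with the seed in capitals. Of the 355 described names with a rat prefix, 322 matched a RefSeq mature name, and of the 90 with another species prefix, 29 matched once the prefix was removed. The first pair had the highest ratios of all described names, although the table lists them under a mouse and a guinea pig name, so that the rat entries of those names are shown.
miR-223-3p: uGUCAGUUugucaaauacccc
miR-142-5p: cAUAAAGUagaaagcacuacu
The next 4 are the arms of the neighbouring miR-143 and miR-145 hairpins, all higher with IL-4/C1q.
miR-143-5p: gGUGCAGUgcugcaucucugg
miR-143-3p: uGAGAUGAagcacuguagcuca
miR-145-5p: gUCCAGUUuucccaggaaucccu
miR-145-3p: gGAUUCCUggaaauacuguuc
The 5 described members of the miR-17 seed family with a matched sequence, all lower with IL-4/C1q, differ only after the seed or at base 1.
miR-17-5p: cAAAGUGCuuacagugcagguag
miR-20a-5p: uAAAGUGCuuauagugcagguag
miR-20b-5p: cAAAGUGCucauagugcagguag
miR-93-5p: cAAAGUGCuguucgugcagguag
miR-106b-5p: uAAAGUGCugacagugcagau
The 3 abundant members of the miR-25 seed family are shown because 2 that differ little in sequence, miR-92a-3p and miR-92b-3p, had different ratios.
miR-25-3p: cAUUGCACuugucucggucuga
miR-92a-3p: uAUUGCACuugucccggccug
miR-92b-3p: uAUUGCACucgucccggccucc
The last 3 are lower miRNAs with seeds other than those above. miR-187-3p was lower in both arms of its hairpin, and the other 2 are known to be induced through NF-κB.
miR-187-3p: uCGUGUCUuguguugcagccgg
miR-146a-5p: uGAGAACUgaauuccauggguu
miR-147: gUGUGCGGaaaugcuucugcua

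Shares in the 2 libraries were close across their whole range. The median log2 ratio of the 445 miRNAs was -0.07, with quartiles of -0.23 and 0.14, and 314 of them (70.6%) had a log2 ratio of less than 0.32 in size, the limit used here for a graded difference. Past 2-fold, 3 miRNAs were higher with IL-4/C1q (0.674% of those described) and 5 were lower (1.12%). Past 1.5-fold the counts were 18 higher (4.04%) and 20 lower (4.49%), and past the graded limit 55 higher (12.4%) and 57 lower (12.8%). Among the 355 with a rat prefix, 1 was higher (0.282%) and 3 lower (0.845%) past 2-fold, and 12 higher (3.38%) and 14 lower (3.94%) past 1.5-fold. The 1.5-fold split of all leaned the other way under other scalings, to 24 higher and 15 lower with TMM and to 24 higher and 14 lower with the authors' own scaling constants. A small lean of many miRNAs to 1 side therefore depends on the scaling. By depth, the median log2 ratio was -0.02 for the 128 miRNAs with 50 to under 200 counts and -0.11 for the 83 with at least 10000.

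**Figure D1:**
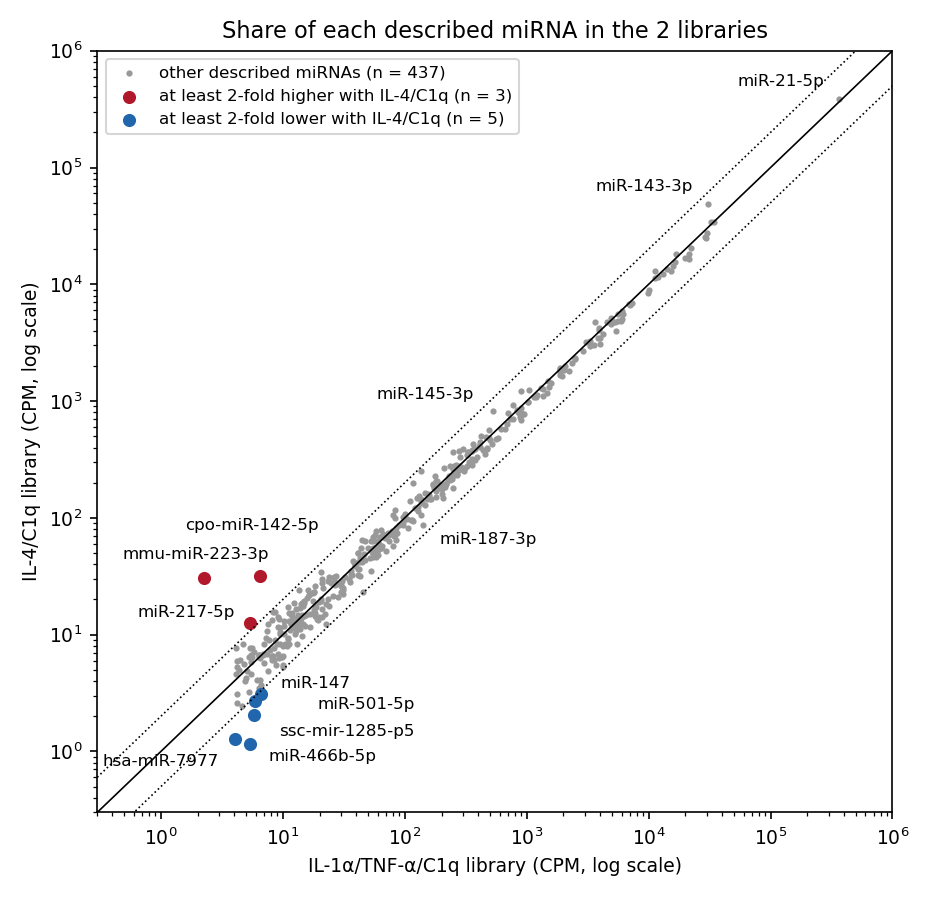
Each point is 1 of the 445 described miRNAs, with its IL-1α/TNF-α/C1q share on the x axis and its IL-4/C1q share on the y axis, both in CPM on log scales. The solid line marks equal shares and the dotted lines 2-fold; the 3 red and 5 blue points lie outside them, and the highest level among these 8 is that of cpo-miR-142-5p, 31.6 CPM with IL-4/C1q.

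A few abundant miRNAs made up most of the counts. The 50 most abundant held 91.5% of the counts with IL-1α/TNF-α/C1q and 91.9% with IL-4/C1q, and none of them passed 2-fold. miR-21-5p, a miRNA known to be induced in reactive astrocytes, was the most abundant by far, with 36.5% of the counts with IL-1α/TNF-α/C1q and 38.7% with IL-4/C1q. Its ratio was only 1.06, yet this is a gain of 2.18 percentage points. miR-143-3p, which promotes smooth muscle differentiation, went from 3.06% to 4.91%, a ratio of 1.60 (95% interval 1.60 to 1.61). Of the 50, miR-143-3p alone was higher past 1.5-fold (2%), and no abundant miRNA was lower by that fold. Together miR-21-5p and miR-143-3p made up 79.8% of all share gained.

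Against those gains, 37 of the 50 abundant miRNAs lost share (74%) and 13 gained it (26%). Over all described miRNAs, 62% lay below equal shares and 38% above. The median log2 ratio of the 50 was -0.11, and -0.00599 with miR-21-5p and miR-143-3p left out of the totals. Past the graded limit, 2 of the 50 were higher (4%) and 3 lower (6%), beside 12.4% and 12.8% of all. The higher pair was miR-143-3p and miR-199a-5p; the lower ones were miR-92b-3p, miR-93-5p and miR-20a-5p. The largest loss of share was that of miR-92b-3p, from 2.14% to 1.65%. The next was let-7c-5p, of the let-7 family that marks differentiated cells, at 1.18-fold lower. miR-125b-5p, a brain miRNA abundant in astrocytes, held 34296 CPM and 34264 CPM, which is at equal shares. miR-9a-5p, known from neural progenitors and astrocytes, went from 3.22% to 3.39%.

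**Figure D2:**
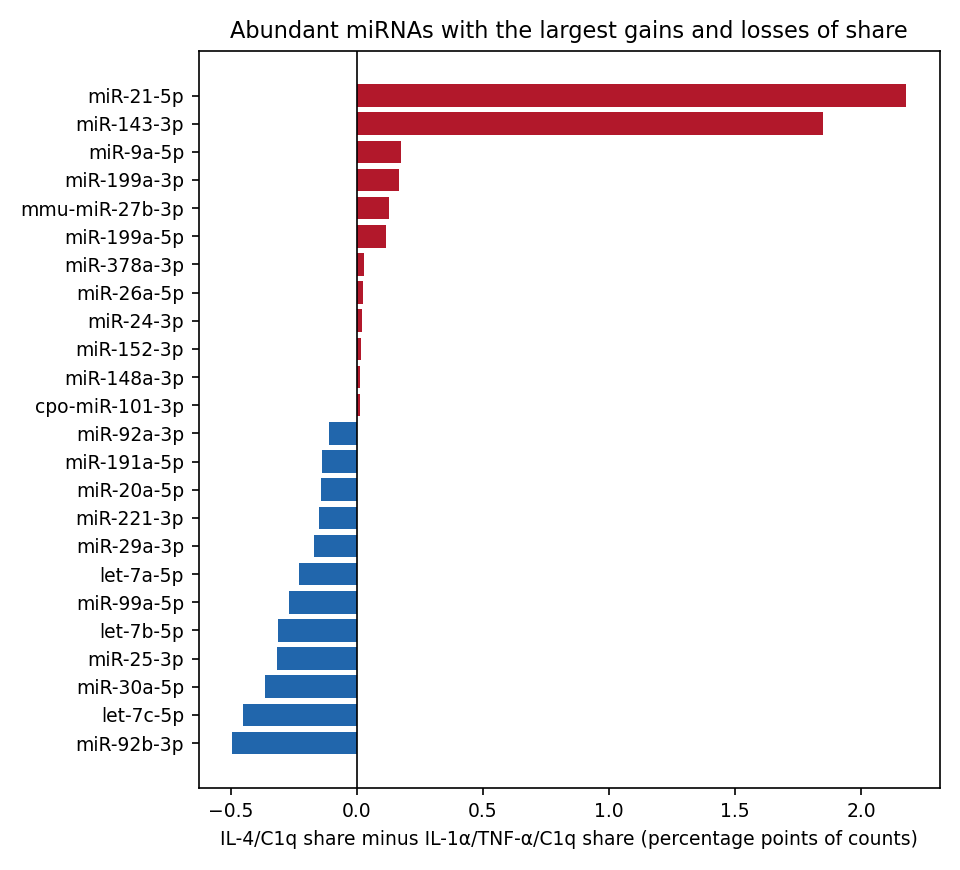
Bars give the difference in share of library counts, IL-4/C1q minus IL-1α/TNF-α/C1q, in percentage points, for abundant miRNAs. miR-21-5p at 2.18 and miR-143-3p at 1.85 points stand out above, and miR-92b-3p at -0.493 points is lowest.

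The highest ratio was that of miR-223-3p, a miRNA of neutrophils and other myeloid cells. It had 28 counts with IL-1α/TNF-α/C1q and 238 with IL-4/C1q, against 368 in the untreated library, and its share was 13.5-fold higher with IL-4/C1q (9.08 to 20.7). miR-142-5p, from a hairpin known as specific to blood cells, had 80 and 246 counts, against 725 untreated, and was 4.87-fold higher (3.77 to 6.35). In both cases the inflammatory library was the low one of the 3. miR-217-5p, known from pancreatic acinar cells, had 66 and 97 counts and was 2.33-fold higher (1.69 to 3.23).

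Most other leukocyte markers did not share this direction. Of 11 listed microglial and leukocyte miRNAs, 7 were described, 3 above equal shares and 4 below, beside 38% of all described miRNAs above. The median log2 ratio of the 7 was -0.13. The 3 above were miR-223-3p, miR-142-5p and miR-150-5p. The 4 below were miR-342-3p, miR-342-5p, miR-146a-5p and miR-155-5p, each with an interval that leaves out equal shares. miR-342-5p had 80 and 32 counts and a log2 ratio of -0.66. miR-342-3p, a myeloid and lymphoid miRNA, had 2633 and 1520 counts and a log2 ratio of -0.13. miR-150-5p, a lymphocyte miRNA, had 52 and 46 counts, and its interval includes equal shares. The second arm of each leading hairpin was at or near the limit of detection, with 0 and 5 counts for miR-223-5p and none in either library for miR-142-3p under its guinea pig name. The summed level of the listed leukocyte miRNAs was 961 CPM with IL-1α/TNF-α/C1q and 840 CPM with IL-4/C1q, against 1070 CPM untreated. With IL-1α/TNF-α/C1q most of this sum was miR-155-5p at 477 CPM, miR-146a-5p at 250 CPM and miR-342-3p at 214 CPM. miR-155-5p and miR-146a-5p also stand in the NF-κB list described below. Names with a bovine prefix, which can count serum RNA, were left out of the miRNAs described; their sum was 595 CPM and 752 CPM, a ratio of 1.26 (1.22 to 1.31), against 4419 CPM untreated. The part of leukocyte or serum RNA in the miR-223-3p and miR-142-5p ratios was not tested.

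The 5 miRNAs past 2-fold lower all had at most 82 counts in their higher library. miR-147, an NF-κB-induced miRNA that restrains macrophage responses in mice, had 82 counts with IL-1α/TNF-α/C1q and 24 with IL-4/C1q, 2.16-fold lower (1.35 to 3.55). It was at 16.4 CPM in the untreated library, above 6.66 CPM with IL-1α/TNF-α/C1q and 3.09 CPM with IL-4/C1q. miR-466b-5p had 66 and 9 counts, 4.63-fold lower (2.30 to 10.6). miR-501-5p had 73 and 21, 2.19-fold lower (1.33 to 3.75). The other two were listed under names of other species: hsa-miR-7977 with 50 and 10 counts and ssc-mir-1285-p5 with 71 and 16. The lower bounds of these 5 intervals lie between 1.33-fold and 2.30-fold, so the fold itself is loosely set at this depth. At the limit of description, the members just inside were hsa-miR-7977, miR-195-3p with 51 and 36 counts and mmu-miR-26a-5p with 52 and 20; just outside lay miR-758-3p with 48 and 26, miR-27a-5p with 47 and 0 and miR-200c-3p with 47 and 38.

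miRNAs of mesenchymal cells were higher with IL-4/C1q. All 11 described members of a 13-member list lay above equal shares under every scaling tried, beside 38% of all described miRNAs in the main scaling. Of the 11, 9 were past the graded limit, beside 12.4% of all, and 4 past 1.5-fold, beside 4.04%, with a median log2 ratio of 0.40 beside -0.07 over all described miRNAs. Their summed level was 47503 CPM with IL-1α/TNF-α/C1q and 69655 CPM with IL-4/C1q, against 21210 CPM untreated. Most of this sum was miR-143-3p, which alone held 30595.5 and 49083.9 CPM, against 12193.2 CPM untreated. The 11 include both arms of miR-143, miR-145, miR-199a and miR-214, so they are not independent. The 4 past 1.5-fold were the arms of miR-143 and miR-145, which drive the contractile state of smooth muscle. miR-143-5p had 1664 and 1954 counts, 1.86-fold higher (1.74 to 1.99). miR-145-5p had 1440 and 1544 counts, 1.70-fold higher (1.58 to 1.83), and miR-145-3p 6480 and 6346 counts, 1.55-fold higher (1.499 to 1.61). Both hairpins lie at chr18:57369983-57371453 on the minus strand of GRCr8, within the long noncoding RNA gene Carmn. Among the 22 groups of neighbouring hairpins with at least 2 described, this 1 had the highest median log2 ratio, 0.72.

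At a second mesenchymal locus the differences were smaller. miR-199a-5p and miR-199a-3p, known from fibroblasts and hypoxia, have a hairpin that overlaps the position of Dnm3 on chromosome 13. miR-199a-5p was 1.32-fold higher (1.30 to 1.34) and miR-199a-3p 1.15-fold (1.14 to 1.16). miR-214-3p, whose position also overlaps Dnm3 and which was chosen after its values were seen, had 2594 and 2067 counts and a log2 ratio of 0.34. The homeobox-cluster miRNAs miR-10a-5p and miR-10b-5p, also chosen after their values were seen, had log2 ratios of 0.33 and 0.43; in the untreated library both were far more abundant, with miR-10b-5p at 16088 counts against 3417 and 2911. The mesenchymal list shares miR-143-3p, miR-143-5p and miR-145-5p with the astrocyte list, whose only 3 members past 1.5-fold they are. The other 11 astrocyte miRNAs stayed under that fold. The whole astrocyte list had 6 above and 8 below, beside 38% of all described miRNAs above, with a median of -0.02. The part of other cell types in the mesenchymal shift was not tested.

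Other tissue markers gave these values. miR-126a-3p, of endothelial cells, had 255 and 269 counts and was 1.67-fold higher (1.40 to 1.99), while its other arm, miR-126a-5p, had a log2 ratio of -0.05. miR-375-3p, of endocrine and epithelial cells, had 103 and 121 counts against 1120 untreated, 1.86-fold higher (1.42 to 2.45). The other 3 epithelial markers described had log2 ratios from -0.23 to -0.05, miR-141-3p was at 0 in both libraries, and the summed level of the list was 131 CPM and 124.6 CPM against 3734 CPM untreated. Of the muscle list, 5 of 8 were described, with 3 above and 2 below and a median log2 ratio of 0.36, resting on miR-133a-3p, with 144 and 117 counts, and on miR-1-3p and miR-1b, which are listed with the same 203 and 171 counts and so are not separate measurements. miR-122-5p, the main miRNA of liver and an abundant one of serum, had 11049 and 9508 counts against 44888 untreated, 1.36-fold higher (1.33 to 1.40). By summed level, the 14 listed astrocyte miRNAs, all described, held 521943 CPM and 559763 CPM, mostly as miR-21-5p, which many cell types express, against 6721 CPM and 6527 CPM for neuronal miRNAs. The latter, with 9 of 13 described, split 4 above and 5 below, and none passed 1.5-fold. Over all described miRNAs, 38% lay above equal shares.

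**Figure D3:**
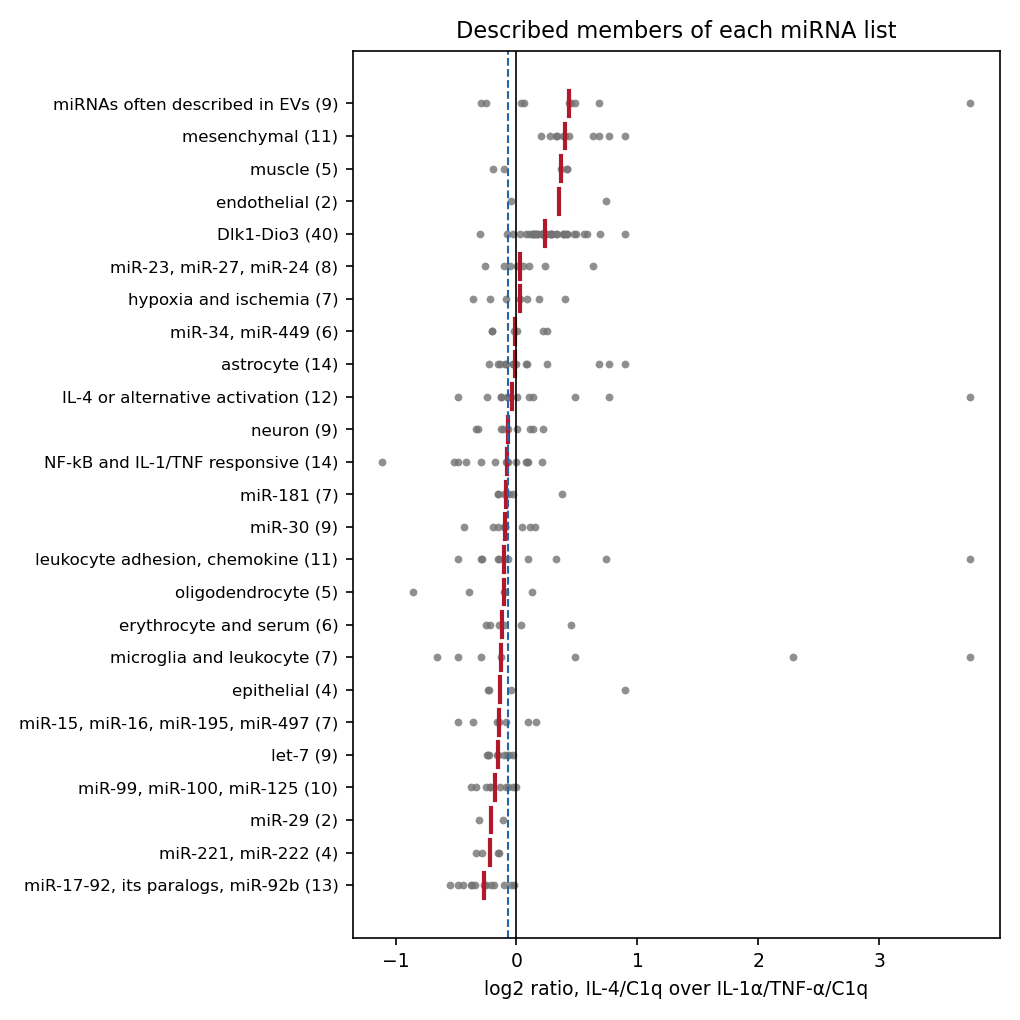
Each row is a list of miRNAs with its number of described members in brackets; dots are the members' log2 ratios, IL-4/C1q over IL-1α/TNF-α/C1q, red bars the list medians, and the dashed blue line the median of all described miRNAs, -0.07. All 11 mesenchymal members lie right of 0, and all 13 of miR-17-92, its paralogs and miR-92b-3p left of it, of which 10 to 11 stay there under the 5 other scalings.

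The imprinted Dlk1-Dio3 domain on chromosome 6, expressed from the maternal chromosome and rich in brain miRNAs, was shifted as a set of small differences. Of 53 listed miRNAs 40 were described, 37 above equal shares and 3 below, beside 38% of all described miRNAs above, with a median log2 ratio of 0.24. The graded limit was passed by 13, beside 12.4% of all, and 1.5-fold by 2, a share near the 4.04% of all described miRNAs. Its most abundant member, miR-127-3p, had 12871 and 9614 counts and a log2 ratio of 0.24. miR-540-3p had 546 and 506 counts, 1.47-fold higher (1.30 to 1.66). The 2 past 1.5-fold, chosen after their values were seen, were miR-369-5p and miR-487b-3p, with log2 ratios of 0.90 and 0.69. By position, chr6:134543445-134579838 held 29 described names, 24 above and 5 below, and chr6:134298084-134331416 held 11, 10 above and 1 below. Past the graded limit, the first held 9 higher and 1 lower, and the second 2 higher and 0 lower. Their lowest members, miR-496-3p and miR-770-3p, chosen after their values were seen, had log2 ratios of -0.57 and -0.56. Neither is among the 53 listed, whose lowest described member had a log2 ratio of -0.30, so the list does not cover the whole domain. Under the 5 other scalings tried, 38 or 39 of the 40 were above equal shares, with list medians from 0.29 to 0.34.

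Most miRNAs of families known from proliferating cells were lower. A list of the miR-17-92 cluster, which promotes cell cycle entry and is often raised in tumours, its 2 paralogous clusters and the related miR-92b-3p from another locus had 13 of 15 miRNAs described. All 13 lay below equal shares, beside 62% of all described miRNAs, and 10 to 11 of them under the 5 other scalings. Their median log2 ratio was -0.27, beside -0.07 over all. Their summed level was 70973 CPM with IL-1α/TNF-α/C1q and 58977 CPM with IL-4/C1q, of which miR-92b-3p held 21443 and 16508 CPM. None of the 13 passed 1.5-fold. Grouped by seed instead, the 5 members sharing AAAGUGC had log2 ratios from -0.49 to -0.21, and all 5 were lower under each of those scalings. miR-20a-5p went from 5424 to 4002 CPM, 1.36-fold lower (1.34 to 1.37), and miR-93-5p was 1.29-fold lower (1.27 to 1.31). miR-17-5p, miR-20b-5p and miR-106b-5p, chosen after their values were seen, were 1.27-fold, 1.40-fold and 1.16-fold lower. The counts of miR-17-5p, miR-20a-5p and miR-20b-5p are fractional, as when reads are divided among near-identical sequences, so their single values are uncertain.

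The seed AUUGCAC of the miR-25 family had ratios below 1 in all 5 described members, beside 62% of all described miRNAs. With miR-21-5p and miR-143-3p left out of the totals, only 3 were below. The median log2 ratio was -0.14 in the main scaling. The interval of miR-32-5p includes equal shares. miR-92b-3p was 1.30-fold lower (1.29 to 1.31) and miR-25-3p 1.19-fold lower (1.18 to 1.20). miR-92a-3p was only 1.07-fold lower (1.06 to 1.08), although its sequence differs little from that of miR-92b-3p. Both share reads with related names. The hairpins of miR-25 and miR-93 lie with that of miR-106b inside Mcm7 on chromosome 12, and the 4 described arms of miR-25 and miR-93 at chr12:22156641-22156930 had a median log2 ratio of -0.31. The arms of miR-106b, not in that count and chosen after their values were seen, had log2 ratios of -0.21 and -0.02, the latter with an interval that includes equal shares. The 5 described names found only on the miR-17-92 hairpins at chr15:98587848-98588632 had a median of -0.34, of which miR-18a-5p, with 239 and 103 counts, was lowest at 1.46-fold lower (1.16 to 1.86). Names that also come from other hairpins, such as miR-92a-3p, are not among those 5.

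**Figure D4:**
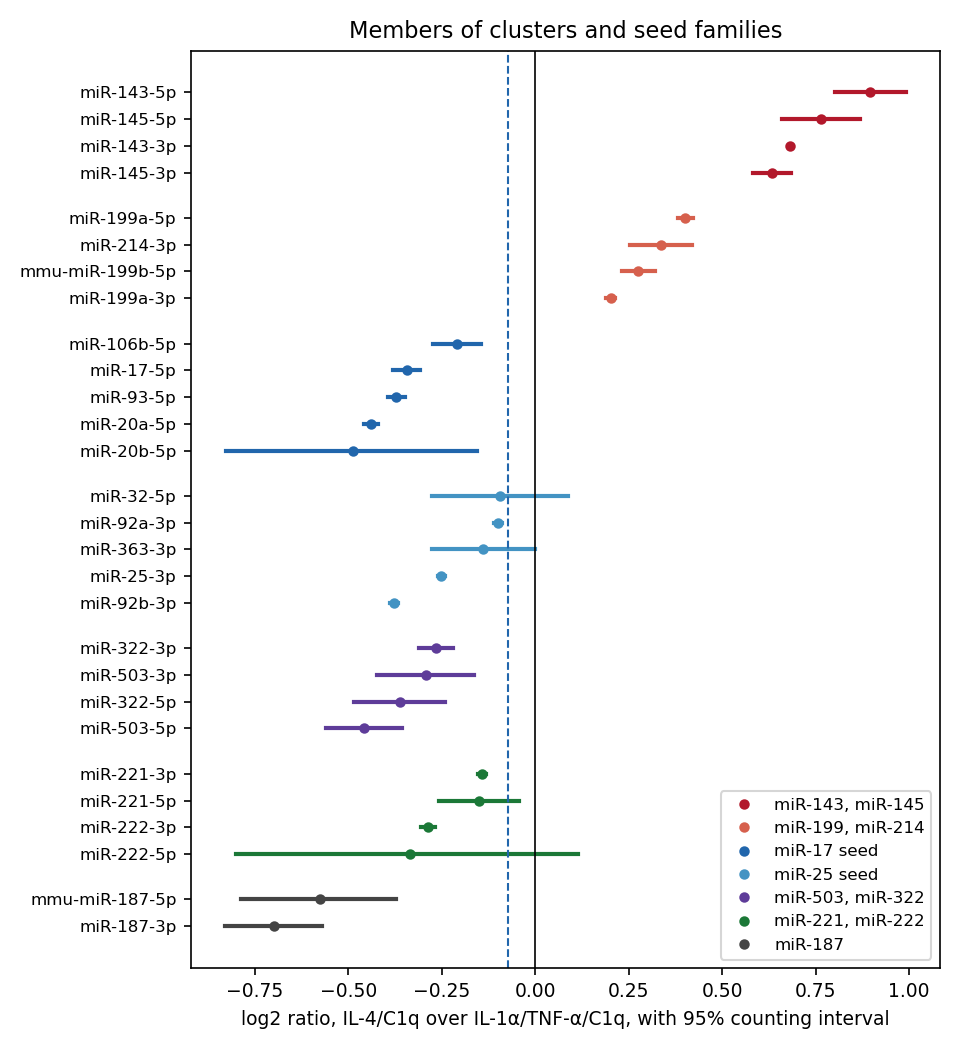
Points are log2 ratios, IL-4/C1q over IL-1α/TNF-α/C1q, with 95% counting intervals, for miRNAs grouped by locus or seed; the dashed line is the median of all described miRNAs, -0.07. The miR-143, miR-145, miR-199 and miR-214 members shown lie right of 0, and those shown of the miR-17 and miR-25 seeds, miR-503, miR-322, miR-221, miR-222 and miR-187 lie left of it, except that miR-32-5p and miR-92a-3p cross it with miR-21-5p and miR-143-3p left out of the totals.

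Several other loci were lower in every described member. At chrX:137720933-137726241, the cluster of miR-503, miR-322, miR-351, miR-450 and miR-542, which restrains the cell cycle in muscle precursors, all 12 described names lay below equal shares, with log2 ratios from -0.46 to -0.04, and between 7 and 11 did under the other scalings. miR-503-5p, chosen after its values were seen, had 2515 and 1155 counts and was lowest there, at 1.37-fold lower (1.28 to 1.47). At chrX:6022621-6023290, all 4 arms of miR-221 and miR-222, which target the cell cycle inhibitor p27, had ratios below 1. Their median was -0.22, although the interval of miR-222-5p includes equal shares. miR-222-3p was 1.22-fold lower (1.20 to 1.24). Of the 22 groups of neighbouring hairpins, 8 lay wholly below equal shares and 4 wholly above, beside 62% of all described miRNAs below and 38% above. Under the 5 other scalings 4 to 6 of these groups lay wholly below and 4 wholly above. Of 11 seed groups with at least 3 described members, formed only from names with a matched RefSeq sequence, 7 lay wholly below, or 1 to 4 under the other scalings, and none wholly above. The shares of single miRNAs give no expected number of whole groups, which depends on group size and on linked arms of a hairpin. miR-30b-5p and miR-15a-5p, in no seed group here and chosen after their values were seen, had log2 ratios of 0.04 and 0.10, both with intervals that include equal shares.

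The let-7 family had all 9 described members below equal shares, and 6 to 8 under the other scalings, with a median log2 ratio of -0.15. The miR-99, miR-100 and miR-125 family had all 10 below, and 6 to 8 under the other scalings, with a median of -0.18. These counts and medians stand beside 62% below equal shares and a median of -0.07 over all described miRNAs. The miR-30, miR-181 and miR-15 families had medians from -0.14 to -0.08, and the miR-23, miR-27 and miR-24 group and the miR-34 and miR-449 group medians of 0.03 and -0.01. No member of the let-7, miR-30 or miR-181 families passed 1.5-fold. The 2 described miR-29 miRNAs, which target collagens, were both lower, with a median of -0.21.

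A mixed list of miRNAs known as responsive to NF-κB or to IL-1 and TNF had a median near that of all described miRNAs. Of 18 listed, 14 were described, 4 above equal shares and 10 below, beside 62% of all described miRNAs below. The median log2 ratio was -0.08, and only miR-147 passed 1.5-fold. Under the authors' constants the split was 7 and 7, and with miR-21-5p and miR-143-3p out of the totals 8 above and 6 below. Past the graded limit 3 were lower, miR-147, miR-146a-5p and miR-212-5p, and 0 higher, beside 12.8% and 12.4% of all. miR-212-5p had 204 and 90 counts, 1.43-fold lower (1.11 to 1.85). miR-146a-5p, a feedback inhibitor that targets the IL-1 receptor adaptors IRAK1 and TRAF6, had 3084 counts with IL-1α/TNF-α/C1q and 1394 with IL-4/C1q, 1.40-fold lower (1.31 to 1.49). miR-155-5p, which promotes inflammatory responses, had 5874 and 3025 counts, 1.22-fold lower (1.17 to 1.28). In the untreated library miR-146a-5p was at 424 CPM, above 250 with IL-1α/TNF-α/C1q and 179 with IL-4/C1q, and miR-147 was likewise highest untreated. miR-155-5p was at 299 CPM untreated, below 477 and 389, and miR-212-5p at 13.8 CPM, between 16.6 and 11.6. miR-146b-5p, from a separate locus with the same seed as miR-146a-5p, had a log2 ratio of -0.18. Of the 3 most abundant members of the NF-κB list, miR-21-5p and miR-9a-5p were slightly above equal shares and miR-125b-5p was at them, while miR-132-3p, a CREB-regulated miRNA, had a log2 ratio of -0.07. The differences of miR-147, miR-146a-5p and miR-155-5p are larger than counting error but have no replicate check.

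The list for IL-4 or alternative activation had 12 of 13 described, split 6 above and 6 below, with a median log2 ratio of -0.03. Its 2 members past 1.5-fold were miR-223-3p and miR-145-5p, which also stand in other lists. miR-124-3p, linked to quiescent microglia and also the main neuronal miRNA, had 307 and 213 counts and a log2 ratio of 0.14, with an interval that includes equal shares. miR-378a-3p, known to be induced by IL-4 in mouse macrophages, had a ratio of 1.07. The other arm, miR-378a-5p, had 228 and 201 counts and was 1.40-fold higher (1.15 to 1.70). Past the graded limit 3 members of this list were higher and 1 lower, beside 12.4% and 12.8% of all described miRNAs. The series title names recruitment of leukocytes, and a list of miRNAs known to regulate leukocyte adhesion or chemokines had 11 of 12 described, 4 above and 7 below, with a median of -0.10. Its 2 members past 1.5-fold were miR-223-3p and miR-126a-3p. Hypoxia-linked miRNAs split 4 above and 3 below with a median of 0.02. Of miRNAs often described in vesicles, 9 of 10 were described, 7 above and 2 below, with a median of 0.43, among them miR-223-3p and miR-143-3p. Erythrocyte and serum miRNAs, with 6 of 9 described, split 2 above and 4 below with a median of -0.12. These splits stand beside 38% of all described miRNAs above equal shares and 62% below.

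Lower miRNAs outside these families included miR-187-3p, known as IL-10-induced in human monocytes, with 1736 and 675 counts, 1.62-fold lower (1.48 to 1.78). Its other arm, listed as mmu-miR-187-5p, had 650 and 275 counts and was 1.49-fold lower (1.29 to 1.72). miR-338-3p, an oligodendrocyte miRNA, had 276 and 96 counts, 1.81-fold lower (1.43 to 2.31). The oligodendrocyte list had 1 above and 4 below, beside 62% of all described miRNAs below, and a median of -0.11. mmu-mir-3535-p3 had 558 and 179 counts, 1.97-fold lower (1.66 to 2.34), the lowest ratio among names with at least 200 counts. mmu-miR-16-1-3p had 258 and 110 counts, 1.48-fold lower (1.18 to 1.87), and miR-6324 had 275 and 117, 1.48-fold lower (1.19 to 1.86).

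Both arms of a hairpin come from the same precursor but are counted from different reads. For 75 hairpins with a RefSeq hairpin entry and both arms described, the arms lay on the same side of equal shares in 54 (72%). With 62% of all described miRNAs below equal shares and 38% above, many pairs would lie on the same side even if arms were unrelated. Across these hairpins Pearson's r of the log2 ratios was 0.57 and Spearman's rho 0.49, and across the 45 with at least 200 counts for each arm 0.79 and 0.61. Arms of a hairpin share both libraries and their scaling, and neighbouring hairpins share transcripts, so the points are not independent. All 9 hairpins with both arms past the graded limit had them on the same side. The arms of miR-143 had log2 ratios of 0.90 and 0.68 and those of miR-187 -0.58 and -0.70. In 16 hairpins the arms' intervals did not overlap, among them miR-501, at -1.13 and -0.28.

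**Figure D5:**
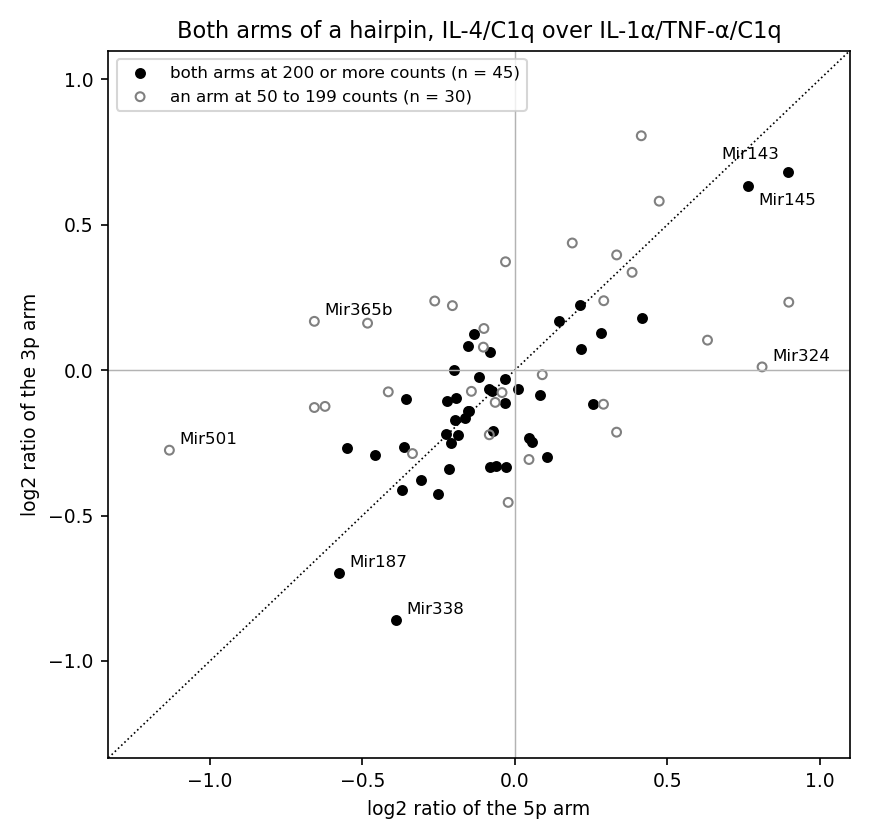
Each point is a hairpin with both arms described, with the log2 ratio of the 5p arm on the x axis and of the 3p arm on the y axis, both IL-4/C1q over IL-1α/TNF-α/C1q; filled points have at least 200 counts for each arm and the dotted line marks equal ratios. Mir143 and Mir145 lie at the upper right and Mir187 and Mir338 at the lower left.

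The files also list length and substitution variants of some miRNAs, which did not enter the choice of members. Of 317 names with at least 200 counts, 16 had several variants, 53 in all, and 8 of these had shares of their miRNA with intervals that did not overlap between the libraries. The shifts were small for abundant miRNAs: the substituted row of let-7a-5p held 96.3% and 95.9% of its counts, and the miR-92a-3p form 1 base longer 93.6% and 93.9%. The largest named here, chosen after its values were seen, was a substituted row listed under hsa-miR-1246, a name that can also take fragments of a small nuclear RNA, at 6.79% and 10.1%.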

How the data were processed

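Small RNA libraries of vesicles from treated rat astrocytes were used as deposited. The authors' tables give, per the file headers, 1 row per miRNA variant with an estimated count, called raw, and a normalized signal. The raw values are expected counts: 140 rows with IL-1α/TNF-α/C1q and 151 with IL-4/C1q hold fractions, as when reads are divided among names, a step that no source used here describes. The authors' normalized signal equals the deposited count multiplied by 1 constant per library (0.684 and 1.14). Names of the aligner, counter and miRNA database, and the build, were not given in the sources used here. Of 1480 rows, 372 predicted candidates (prefix PC) and 179 rows with a bovine prefix were left out, and the remaining 929 were summed by the miRNA name without its variant suffix, giving 769 names. Counts were not rounded for shares; intervals are exact conditional binomial intervals at 95% (SciPy 1.17.1, Python 3.11.15, pandas 2.3.3, NumPy 2.4.6). Other scalings used the TMM factors of edgeR 4.0.16 and the size factors of DESeq2 1.42.0 in R 4.3.3, with no test. The interval code was tested on simulated data. Clusters are hairpins with a RefSeq hairpin entry at most 10000 bases apart on the same strand of GRCr8; the 19 names on several hairpins were left out of them and of the arm pairs. Seed groups use names with a RefSeq sequence. No p-value was computed, since each treatment has 1 library.

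Members and lists were chosen with earlier results of these data known. The miRNAs named were drawn from the 8 highest and 8 lowest ratios with at least 200 counts and from the 15 most abundant. Added to these were the 8 highest and 8 lowest ratios among the 50 most abundant, and up to 4 per list by level. Every miRNA past 2-fold was named, but not every abundant or list miRNA is given a value. Any other is marked as picked once its values were known, lies at the count limit, or belongs to a list or family described. The untreated library gave side values only.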

Additional observations from a re-analysis of the deposited data

Results flagged for a closer look

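Among predicted candidates and bovine-named entries, which are outside the miRNAs described, 5 had at least 50 counts and at least 2 times the level of the untreated library, in CPM of all deposited counts. With IL-1α/TNF-α/C1q the predicted candidate PC-3p-5687 was at 7.704 CPM (95 counts) against 0.9489 untreated (6 counts). In the same library PC-5p-1493 was at 41.84 CPM against 20.56, and the bovine-named bta-miR-92a at 8.19 CPM against 3.479. With IL-4/C1q, PC-3p-1507 was at 38.16 CPM against 18.19, and PC-5p-1143 at 68.36 CPM against 34.16. These are differences between single libraries, with no test, and their source was not tested.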

How the results depend on the processing

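No paired analysis was possible because each treatment has 1 library, and for the same reason no replicate could be left out. Across 13 alternatives, 2 of them chosen after seeing the data, 79 of 95 named miRNAs and 14 of 25 list medians kept their sign in all of them, and the median of all described miRNAs did not. In order of TMM factors, DESeq2 size factors, the authors' constants and totals without miR-21-5p and miR-143-3p (chosen after seeing the data), every log2 ratio shifted by 0.0624, 0.0567, 0.0759 and 0.0995. In that order the median of all described miRNAs was -0.0102, -0.016, 0.00325 and 0.0269, and it was -0.0223 with totals without miR-21-5p. In the same order the muscle median was 0.43, 0.42, 0.44 and 0.46 and the Dlk1-Dio3 median 0.30, 0.29, 0.31 and 0.34. Under each of the 4, 1 abundant miRNA was past the graded limit (a log2 ratio of 0.32) lower in place of 3. The median of the 50 abundant miRNAs was -0.0296 with the authors' constants and -0.00599 without the pair, which also took the let-7 median to -0.0526, miR-29 to -0.11, miR-221 and miR-222 to -0.12 and the miRNAs past 1.5-fold lower to 13. At 1.5-fold the split of 18 higher and 20 lower became 23 and 15 with DESeq2 factors, 22 and 15 without miR-21-5p, and 25 and 13 without the pair. A minimum of 20 counts gave 7 higher and 11 lower past 2-fold. A minimum of 200 gave 0 lower past 2-fold, and 7 higher and 3 lower past 1.5-fold. Rat-named rows alone gave 1 higher and 3 lower past 2-fold, and bovine-named rows added gave 5 higher. With substitution-tagged rows left out, 3 were lower past 2-fold and 1 abundant miRNA higher past the graded limit. The cause was not tested, except that the minimums and row choices change which names enter. Depth limits the 5 miRNAs past 2-fold lower, all at 82 counts or fewer.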
